A study of Mus musculus with 64 samples.

Results

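The 7 genes described here encode the chains of the major histocompatibility complex (MHC) class I and class II molecules, the proteins that present peptides to T cells. They were taken by symbol from the deposited tables of prefrontal cortex, hippocampus, hypothalamus and whole blood, which together list 17199 genes by Entrez number. All 7 were in the blood table. The hippocampus and hypothalamus tables held 6 and lacked H2-Eb1, and the prefrontal cortex table held 5 and lacked H2-Aa and H2-Eb1. That gave 24 combinations of member and tissue, of which 18 passed the filter on low values used for testing.

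All mice were male BALB/c animals aged 28 weeks. The UCMS group had gone through 9 weeks of Unpredictable Chronic Mild Stress, a schedule of varied mild stressors used as a model of depression, and the control group stayed unstressed. For each brain region there were libraries of 8 animals per group. Whole blood, taken as trunk blood, came from 7 control mice and 9 stressed ones, and in all there were 64 libraries from 17 animals. Tissue was collected 14 to 16 hours after the last stressor, at zeitgeber time ZT12.5 to ZT14.5. Within a table each library came from a different animal, per the titles, so p-values measure the spread between animals.

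MHC class I molecules sit on nearly all nucleated cells. Each consists of a heavy chain, encoded by H2-K1 or H2-D1 among others, and the invariant light chain beta-2-microglobulin, encoded by B2m. Class II molecules are restricted mainly to antigen-presenting cells such as B cells, dendritic cells and activated macrophages. H2-Aa and H2-Ab1 encode the alpha and beta chains of the I-A molecule, and H2-Eb1 encodes the beta chain of I-E. Cd74, the invariant chain, fills the peptide groove of newly made class II molecules and guides them to the endosome. In healthy brain parenchyma both classes are low, and microglia, border macrophages and cells of the meninges are among the cells known to express them. Interferon gamma raises both classes, acting on class II through the coactivator Ciita and on class I partly through Nlrc5.

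The promoters of 5 members, from 250 bases before to 50 bases after the start site in RefSeq on GRCm38.p6, are shown because class I and class II genes are known to carry different regulatory motifs. Capitals mark matches, on either strand, to 6 motifs chosen after the sequences were seen. These were the NF-kB type motif GGGATTCCC, the interferon response type motif AANTGAAA, the Y box type motif CTGATTGG, the CCAAT box, the X box type motif GCAACT and the TATA box TATAAA. The Y box letters contain a reversed CCAAT box, so those matches overlap.
B2m, chr2:122147437-122147736, plus strand: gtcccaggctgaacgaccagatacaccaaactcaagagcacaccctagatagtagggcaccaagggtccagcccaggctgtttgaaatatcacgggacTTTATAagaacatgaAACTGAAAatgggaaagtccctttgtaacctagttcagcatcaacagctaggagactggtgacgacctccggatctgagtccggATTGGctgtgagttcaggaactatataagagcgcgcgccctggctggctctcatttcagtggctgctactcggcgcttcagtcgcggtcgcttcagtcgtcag
H2-K1, chr17:34000298-34000597, minus strand: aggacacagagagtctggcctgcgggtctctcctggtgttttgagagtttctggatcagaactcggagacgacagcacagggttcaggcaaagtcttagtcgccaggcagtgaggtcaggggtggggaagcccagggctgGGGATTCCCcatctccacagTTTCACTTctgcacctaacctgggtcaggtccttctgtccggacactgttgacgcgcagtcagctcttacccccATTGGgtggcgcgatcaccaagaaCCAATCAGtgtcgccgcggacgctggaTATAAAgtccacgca
H2-D1, chr17:35262844-35263143, plus strand: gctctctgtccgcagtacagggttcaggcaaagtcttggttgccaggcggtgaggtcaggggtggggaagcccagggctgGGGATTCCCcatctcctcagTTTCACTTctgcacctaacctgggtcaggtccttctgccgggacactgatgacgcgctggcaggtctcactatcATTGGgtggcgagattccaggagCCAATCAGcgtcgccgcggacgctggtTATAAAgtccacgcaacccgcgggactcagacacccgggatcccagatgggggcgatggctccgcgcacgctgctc
H2-Aa, chr17:34287774-34288073, minus strand: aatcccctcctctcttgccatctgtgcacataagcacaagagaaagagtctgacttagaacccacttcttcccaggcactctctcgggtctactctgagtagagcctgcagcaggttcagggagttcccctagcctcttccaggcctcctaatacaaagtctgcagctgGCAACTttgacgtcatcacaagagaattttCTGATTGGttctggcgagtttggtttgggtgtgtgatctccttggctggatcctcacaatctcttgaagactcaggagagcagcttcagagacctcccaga
H2-Eb1, chr17:34305617-34305916, plus strand: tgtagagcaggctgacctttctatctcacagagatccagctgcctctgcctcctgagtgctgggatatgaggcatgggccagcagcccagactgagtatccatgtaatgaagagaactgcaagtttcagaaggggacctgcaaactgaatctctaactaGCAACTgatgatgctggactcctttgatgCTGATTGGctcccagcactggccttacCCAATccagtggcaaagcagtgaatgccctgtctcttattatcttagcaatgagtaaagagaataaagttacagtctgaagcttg
The H2-K1 and H2-D1 windows each held the NF-kB type motif, which occurred in 0.353% of the 32851 promoter windows of that length in the table, and beside it the interferon response type motif, which occurred in 6.58%. B2m held the interferon response type motif and no match to the NF-kB type letters in this window. H2-Aa and H2-Eb1 each held the X box type motif, present in 10.9% of windows, and downstream of it the Y box type motif, present in 4.10%. H2-K1 and H2-D1 also matched the Y box type motif, at positions 8 and -53 from the start site. The CCAAT box, at 37.4% of windows, was in all 5, and the TATA letters, at 13.6%, were in B2m, H2-K1 and H2-D1. From the start site these TATA matches lay at -152 on the opposite strand in B2m, at 35 in H2-K1, thus after the start, and at -26 in H2-D1. These matches describe letters only, and the windows are those of the reference strain.

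On GRCm38, in the GENCODE M21 annotation, the H-2 complex members lie on chromosome 17. H2-K1 spans positions 33996017 to 34000347, H2-Ab1 34257689 to 34269419, H2-Aa 34282744 to 34287823, H2-Eb1 34305867 to 34316674 and H2-D1 35262730 to 35267499. B2m lies on chromosome 2 at 122147686 to 122153083, and Cd74 also lies outside the complex. All are annotated as protein coding. The reference genome comes from C57BL/6J mice, whose H-2 haplotype differs from that of BALB/c, and MHC sequences differ between haplotypes. The effect of that difference on the deposited levels was not tested. Of the 50-base stretches of the longest H2-K1 and H2-D1 transcripts, 8.79% and 14.3% also occurred in transcripts of other genes, most often H2-D1 and H2-Q1, so reads of these class I genes could be split or shared and their levels are uncertain. For the other 5 members that share was 0%.

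The deposited values were read as log2 levels, and each table had been normalized by itself. Levels can therefore be compared between libraries of a tissue, and they are set side by side across tissues without a test. Depth is unknown. Tissue labels were checked against marker genes. The 5 hypothalamic peptide genes (Hcrt, Pmch, Avp, Oxt and Agrp) had a summed level of 9.90 to 11.4 in hypothalamus, while 1 of the 5 was in the hippocampus table and 0 in the prefrontal cortex table. In prefrontal cortex the 5 cortical genes had a summed level of 6.75 in control replicate 2 and 7.55 to 8.29 in the other 15 libraries. That library also had the highest summed level of choroid plexus genes, 11.9 with the next at 7.56. Of the 48 brain libraries, 9 stood apart by their hemoglobin: Hbb-bs, a globin gene of red cells, was at 14.0 or above in these and at 9.63 or below in the other 39. They are called hemoglobin-rich here, with Hbb-bs above 12 as the limit. These libraries came from control replicate 1 and from UCMS replicate 6 in all 3 regions, control replicate 7 in hippocampus and hypothalamus, and UCMS replicate 8 in hypothalamus, so 5 were control and 4 were UCMS libraries.

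Class I genes were measured in every tissue. B2m had a median of 8.26 in whole blood (lowest 6.98, highest 8.77, n = 16), 5.79 in hypothalamus (5.60 to 7.01), 5.18 in hippocampus (4.90 to 6.61) and 5.08 in prefrontal cortex (4.81 to 6.50). Blood libraries lay above nearly all brain libraries, with an overlap between the lowest blood library, UCMS replicate 7, and the highest hypothalamus library. Without the hemoglobin-rich libraries, prefrontal cortex (up to 5.55) and hippocampus (up to 5.27) overlapped each other, and all 12 hypothalamus libraries lay above both, from 5.60. The heavy chain gene H2-K1 had medians of 5.03, 4.10, 3.66 and 3.42 in the same order of tissues, and H2-D1 had medians of 5.26, 5.05, 4.57 and 4.56. For both genes the ranges of neighbouring tissues in that order overlapped.

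Class II levels were lower in the brain tables than in the blood table. Cd74 had a median of 5.87 in blood (5.04 to 6.93), 3.13 in hypothalamus (2.21 to 4.78), 3.04 in hippocampus (1.46 to 4.86) and 2.91 in prefrontal cortex (0.777 to 5.20). The 3 brain ranges overlapped over most of their length, and the blood range overlapped that of prefrontal cortex through its highest library, the hemoglobin-rich control replicate 1. H2-Aa had medians of 5.71 in blood, 2.53 in hypothalamus and 2.45 in hippocampus. H2-Ab1 had a median of 4.20 in blood, with 2.54, 2.77 and 2.43 for hypothalamus, hippocampus and prefrontal cortex. H2-Eb1, measured in blood alone, had a median of 3.64 (3.02 to 4.76). Because of their low means, Cd74 and H2-Ab1 in prefrontal cortex, Cd74, H2-Aa and H2-Ab1 in hippocampus and H2-Ab1 in hypothalamus were below the filter. Their differences below come from a fit without it. Across the brain libraries the class II genes varied far more than most genes: the SD of Cd74 over 16 libraries was 0.962 in hypothalamus, larger than that of 97.3% of genes in the table, and 1.03 in both hippocampus and prefrontal cortex, larger than that of 98.5% and 98.2%, where genes with low levels also spread more. In blood the SDs of H2-K1, 0.217, and H2-D1, 0.243, were larger than those of only 4.58% and 7.92% of genes.

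**Figure D1:**
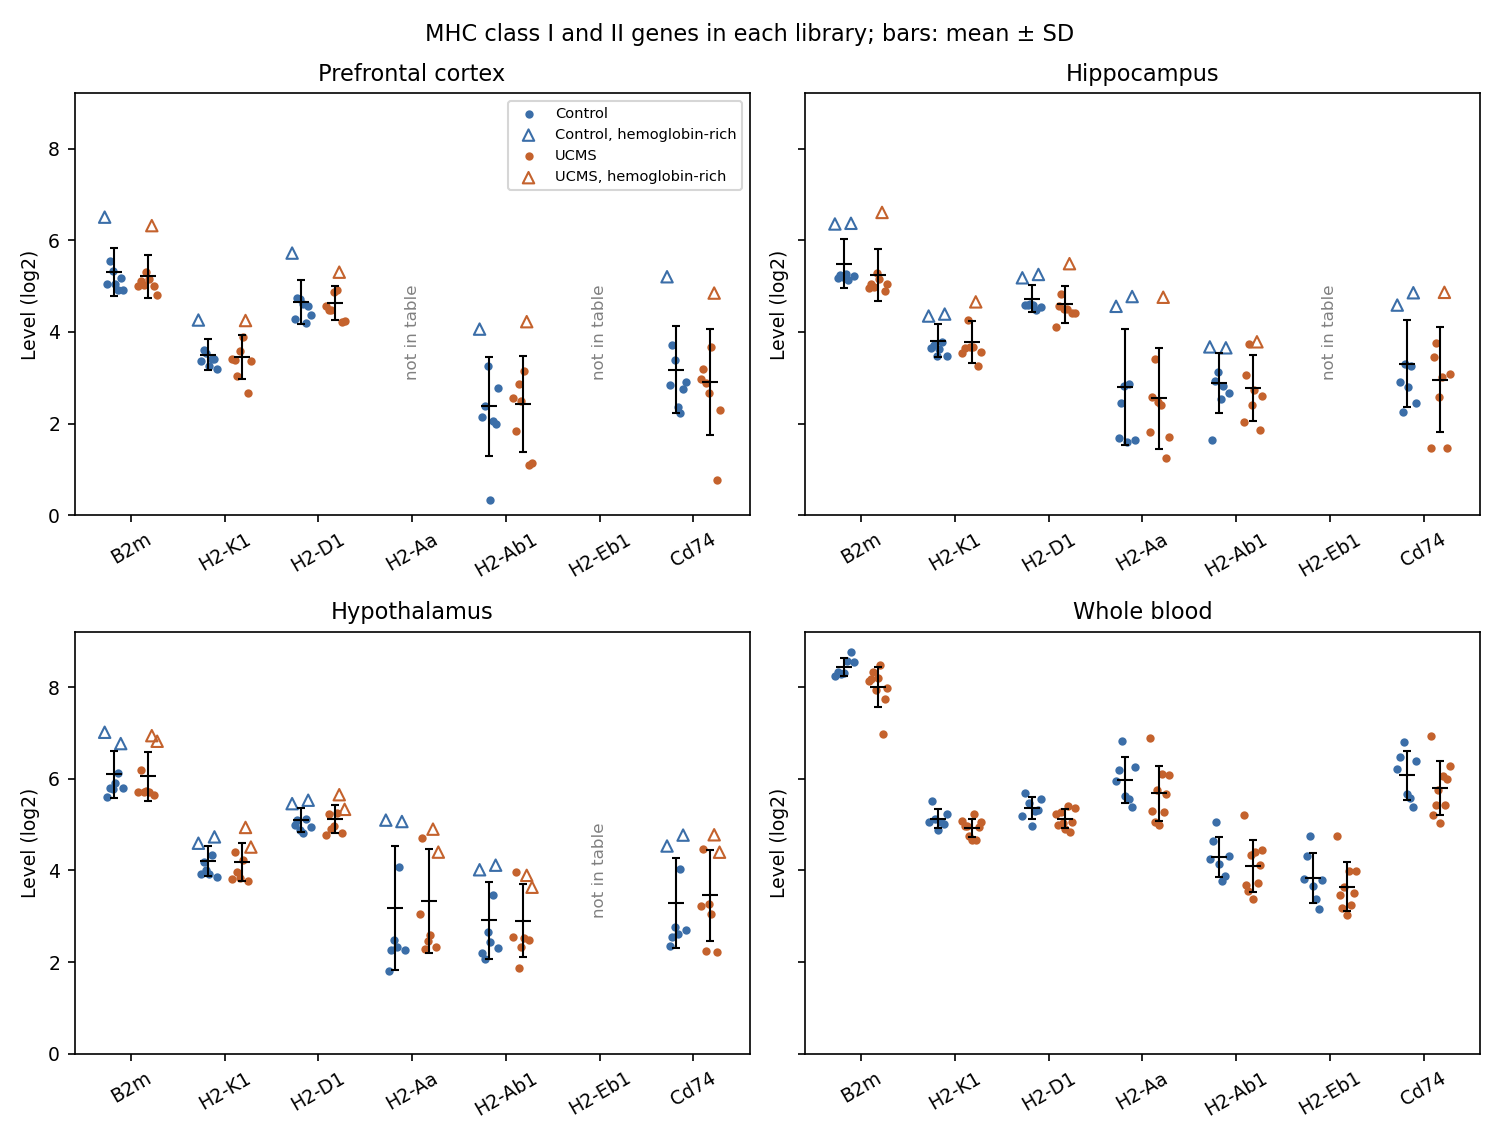
Level of each member (log2, y axis) in each library of the 4 tissues, control in blue and UCMS in orange, with the mean and SD of each group; triangles are the hemoglobin-rich brain libraries. The triangles lie at the top of nearly every brain column, and the control and UCMS points overlap for every member in every tissue.

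In brain, the hemoglobin-rich libraries had the highest class I levels of their region. In hippocampus, B2m was at 6.35, 6.37 and 6.61 in control replicates 1 and 7 and UCMS replicate 6, and between 4.90 and 5.27 in the other 13 libraries. Hypothalamic B2m was at 6.77 to 7.01 in the 4 hemoglobin-rich libraries and at 5.60 to 6.19 in the other 12, and in prefrontal cortex the corresponding values were 6.32 and 6.50 against 4.81 to 5.55. The hemoglobin-rich libraries were thus above all others for B2m in each region. Without them the SD of hippocampal B2m went from 0.547 to 0.123, that of hypothalamic B2m from 0.508 to 0.180 and that of cortical B2m from 0.485 to 0.195. The class II genes kept a wide spread without them: the SD of Cd74 was 0.732 in prefrontal cortex, 0.705 in hypothalamus and 0.705 in hippocampus, larger than that of 95.7%, 96.7% and 97.4% of genes. For H2-Ab1 in prefrontal cortex it went from 1.03 to 0.833, and for hypothalamic H2-Aa from 1.21 to 0.838.

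Cd74 had the same arrangement in prefrontal cortex, at 4.85 and 5.20 against 0.777 to 3.71, and in hippocampus, at 4.59 to 4.86 against 1.46 to 3.75. H2-Aa, the I-A alpha chain, was at 4.56 to 4.77 in the 3 hemoglobin-rich hippocampus libraries and at 1.26 to 3.41 in the others, a difference of medians of 2.35. In hypothalamus the separation of the class II genes was not complete: Cd74 was at 4.40 to 4.78 in the hemoglobin-rich libraries and reached 4.48 in UCMS replicate 2, which was not hemoglobin-rich. All hemoglobin-rich libraries lay above all others for 5 of 5 members in prefrontal cortex, against 2.73% of all 15697 genes in that table. The count was 5 of 6 in hippocampus, against 2.88% of 15573 genes, with H2-Ab1 as the exception (UCMS replicate 3 reached 3.75 beside 3.65 to 3.78). In hypothalamus it was 3 of 6, the class I genes, against 3.91% of 16155 genes. These libraries were grouped by what was measured in them, so no test is given. The class II members were low in the other libraries, with H2-Ab1 down to 0.338 in prefrontal cortex and H2-Aa down to 1.26 in hippocampus. How genes entered each table is not known, so they may be listed there only through the hemoglobin-rich libraries. The class II part of these counts may thus follow from being listed.

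**Figure D2:**
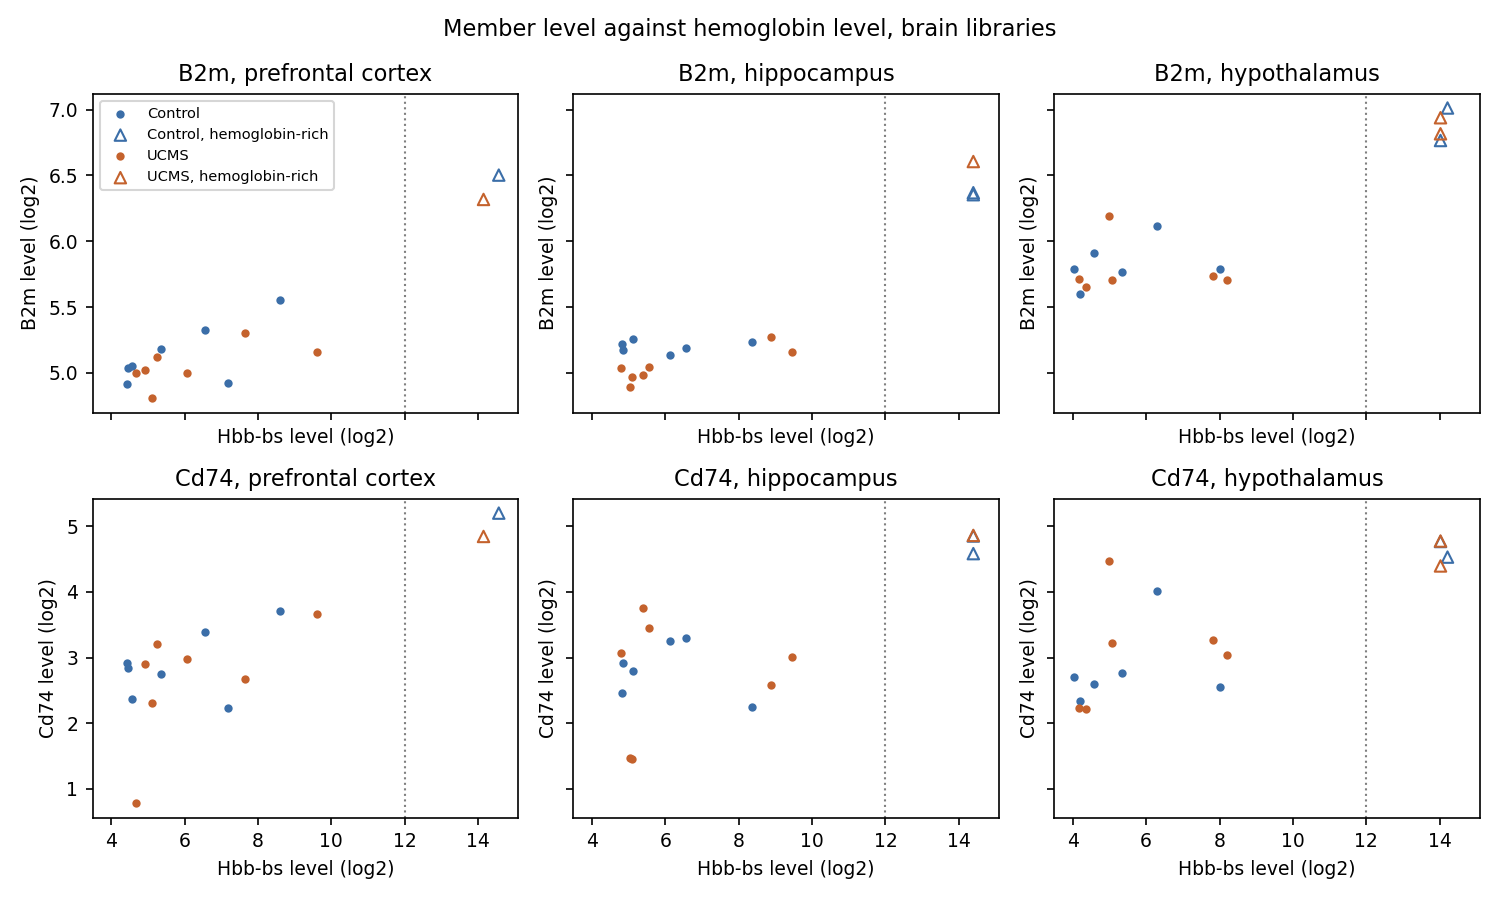
Level of B2m (upper row) and Cd74 (lower row) against the level of the globin gene Hbb-bs, both log2, in the libraries of the 3 brain regions; the dotted line is the limit of 12. The hemoglobin-rich libraries form a separate cluster at the right, with B2m at 6.32 to 7.01, and 1 other hypothalamus library reaches a Cd74 level among theirs.

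Within 1 animal the member levels followed the hemoglobin of the region. Animal C7 was hemoglobin-rich in hippocampus and hypothalamus, with B2m at 6.37 and 6.77 and Cd74 at 4.85 and 4.77, and not in prefrontal cortex, where B2m was 5.18 and Cd74 was 2.75, both inside the range of the other libraries. Animal BS2 (UCMS replicate 8) was hemoglobin-rich in hypothalamus alone, with B2m at 6.82 and Cd74 at 4.40, against 4.81 and 2.31 in prefrontal cortex and 5.04 and 3.07 in hippocampus.

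Several lists of blood cell genes also differed between the same libraries. In hypothalamus 4 of 10 B cell genes were in the table, and Cd79a, a subunit of the B cell receptor complex, was at 3.21 to 4.32 in the hemoglobin-rich libraries and at 0.315 to 1.12 in the others. The lowest value of that table was 0.158, and how genes entered each table is not known. Genes this low in the other libraries may be listed only through the hemoglobin-rich ones. Their separation, and that of sums with them, may thus follow from being listed. The summed level of the B cell genes was 5.87 to 6.53 against 3.68 to 4.17, and that of the 6 neutrophil genes was 7.26 to 8.18 against 3.50 to 4.62. In prefrontal cortex 3 of the 6 neutrophil genes were in the table, at a summed 7.13 to 7.64 against 1.85 to 7.43, where UCMS replicate 1, which was not hemoglobin-rich, had the 7.43. The T cell genes did not separate the libraries in any region, with 4.86 to 5.21 against 4.61 to 5.92 in prefrontal cortex for the 2 of 7 in the table. Nor did the summed dendritic cell genes. The summed border and perivascular macrophage genes separated them in each region, at 7.25 to 7.86 against 4.11 to 5.23 in hypothalamus (4 of 6 genes, with Pf4). Of that list F13a1 separated them in each region, while Mrc1 and Lyve1, in the hippocampus and hypothalamus tables, did so in neither. The platelet gene Pf4, among the brain tables only in that of hypothalamus, was at 6.91 to 7.55 there against 0.529 to 1.95. The limit given for Cd79a holds for it too. In hippocampus and prefrontal cortex 1 of the 10 B cell genes was in the table, Ighm, the heavy chain of immunoglobulin M. It was at 4.54 to 5.17 against 3.27 to 3.98 in hippocampus and at 4.34 to 4.89 against 2.91 to 4.51 in prefrontal cortex. The summed level of the 12 microglia genes, all measured, did not separate them: it was 8.70 to 9.02 against 8.74 to 9.23 in hypothalamus, 9.00 to 9.18 against 8.93 to 9.36 in hippocampus and 9.11 to 9.17 against 8.88 to 9.25 in prefrontal cortex. Such a sum is set mostly by the genes with the highest levels. Of these genes P2ry12 alone separated the libraries, at 5.45 to 5.92 against 3.78 to 4.56 in hypothalamus, and did so in each region. P2ry12 was also measured in blood, at 5.26 to 7.51 with a median of 7.06, as 1 of 5 microglia genes in that table. The 5 monocyte genes, all measured, had a summed level of 7.17 to 8.11 against 5.98 to 7.39 in hypothalamus, 7.03 to 7.46 against 5.47 to 6.38 in hippocampus and 7.09 to 7.54 against 5.44 to 6.27 in prefrontal cortex. Of these genes Ccr2 separated the libraries in each region, and Lyz2 did so in hippocampus and prefrontal cortex. Ly6c2, Cd14 and Fcgr1 did not separate them in any region. Pmch, a hypothalamic peptide gene, was at 6.77 to 7.33 in the hemoglobin-rich hippocampus libraries and at 0.452 to 3.18 in the other 13. The limit given for Cd79a holds for Pmch too. It may also hold for Ccr2, which was at 0.837 to 3.06 in the other prefrontal cortex libraries. The part of blood cells in the member levels was not tested. In bulk tissue, more cells of a type and more RNA per cell cannot be told apart.

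Other genes of the antigen presentation pathway were compared in the same way. On the class I side, all hemoglobin-rich libraries lay above the others for 4 of 20 measured genes in hypothalamus, 2 of 17 in hippocampus and 4 of 16 in prefrontal cortex. The nonclassical class I gene H2-T24 was among them in each region, at 4.31 to 4.84 against 2.07 to 3.07 in hypothalamus, 4.83 to 5.24 against 2.62 to 3.30 in hippocampus and 5.08 to 5.25 against 2.92 to 3.72 in prefrontal cortex. H2-T23, which encodes Qa-1, was among them in prefrontal cortex and hippocampus. On the class II side, with the transactivator gene Ciita, the Rfx genes and the endosomal enzymes Ctss, Ifi30 and Lgmn, the count was 0 of 7, 0 of 8 and 0 of 8 in that order. The list names H2-Ea, whose symbol in these data is H2-Ea-ps, so that gene is outside the class II counts here and below. For H2-Ea-ps all hemoglobin-rich libraries did lie above the others in hypothalamus and hippocampus, with levels given below. The limit on listing given for the class II members holds for H2-Ea-ps too. The prefrontal cortex table lacked it. Over all genes the share was 3.91%, 2.88% and 2.73%, so a count of 0 among 7 or 8 genes is near the background.

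In hypothalamus 2 libraries without high hemoglobin also had high class II levels. Control replicate 6 had Cd74 at 4.02, H2-Aa at 4.07 and H2-Ab1 at 3.46, and UCMS replicate 2 had 4.48, 4.70 and 3.96. The next highest of the 12 libraries that were not hemoglobin-rich had Cd74 at 3.27 and H2-Aa at 3.05. These were also the libraries with the highest summed level of the 6 meningeal and fibroblast genes, 7.93 in UCMS replicate 2 and 7.01 in control replicate 6. In hippocampus, the highest class II levels outside the hemoglobin-rich libraries were in UCMS replicate 3, with Cd74 at 3.75, H2-Aa at 3.41 and H2-Ab1 at 3.75. That library had the highest summed level of the 4 choroid plexus genes, 12.8, and of the microglia genes, 9.36. At the low end was animal S8 (UCMS replicate 7), which had the lowest Cd74 level of prefrontal cortex, 0.777, and in hippocampus shared the lowest, 1.46, with UCMS replicate 1.

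The main question of the design was whether chronic stress changed these genes. In prefrontal cortex B2m was at 4.91, 5.12 and 6.50 (lowest, median and highest of 8) in control and at 4.81, 5.07 and 6.32 in UCMS animals. Cd74 was at 2.23, 2.88 and 5.20 in control and at 0.777, 2.93 and 4.85 in UCMS animals. The groups overlapped over nearly their whole ranges. The UCMS minus control difference was -0.10 for B2m (95% confidence interval -0.58 to 0.39), -0.06 for H2-K1 (-0.47 to 0.36), -0.01 for H2-D1 (-0.43 to 0.40), 0.04 for H2-Ab1 (-1.02 to 1.10) and -0.26 for Cd74 (-1.29 to 0.77). By limma with Benjamini-Hochberg adjustment 0 of 14127 genes passed an adjusted p of 0.05 (0% called). At an unadjusted p under 0.05, 308 genes (2.18%) were called and 0 of the 3 members tested. Of the 3, 3 were lower in UCMS animals, where 48% of all genes were.

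Hippocampal B2m was at 5.13, 5.23 and 6.37 in control and 4.90, 5.04 and 6.61 in UCMS animals, and Cd74 at 2.24, 3.08 and 4.85 against 1.46, 3.04 and 4.86. Both groups again spanned each other. The differences were -0.25 for B2m (95% confidence interval -0.78 to 0.29), -0.03 for H2-K1 (-0.42 to 0.37) and -0.12 for H2-D1 (-0.47 to 0.22). For the class II genes they were -0.25 for H2-Aa (-1.40 to 0.90), -0.10 for H2-Ab1 (-0.78 to 0.58) and -0.34 for Cd74 (-1.36 to 0.67). Limma called 0 of 14015 genes at an adjusted p of 0.05 (0%) and 414 (2.95%) at an unadjusted p under 0.05, with 0 of 3 members among them. All 3 tested members were lower in UCMS animals, as were 49.9% of all genes. Of the 3 hemoglobin-rich libraries 2 were controls, and without them the difference was -0.15 for B2m, -0.14 for Cd74, 0.04 for H2-K1 and 0.06 for H2-Aa, with no adjusted p under 0.962.

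Hypothalamic B2m was at 5.60, 5.85 and 7.01 in control and 5.65, 5.73 and 6.94 in UCMS animals. H2-Aa was at 1.81, 2.41 and 5.10 in control and 2.28, 2.82 and 4.90 in UCMS animals, so the highest and lowest libraries of both groups lay close together. The differences were -0.04 for B2m (95% confidence interval -0.55 to 0.48), -0.01 for H2-K1 (-0.38 to 0.36), 0.01 for H2-D1 (-0.26 to 0.29), 0.16 for H2-Aa (-1.05 to 1.37) and 0.17 for Cd74 (-0.80 to 1.14). For H2-Ab1 the interval of the difference was -0.81 to 0.80. Limma called 0 of 14539 genes at an adjusted p of 0.05 (0%) and 308 (2.12%) at an unadjusted p under 0.05, with 0 of 5 members. Here 2 of 5 tested members were lower in UCMS animals, against 49.5% of all genes.

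In whole blood all 7 members had lower means in UCMS animals, none by an amount that passed the adjusted threshold. B2m was at 8.23, 8.34 and 8.77 (lowest, median and highest of 7) in control and at 6.98, 8.14 and 8.48 (of 9) in UCMS animals. Of the 9 UCMS libraries 7 lay below every control library and the other 2, replicates 3 and 6, overlapped them. The mean was 8.44 ± 0.197 (SD, n = 7) in control and 7.99 ± 0.439 (SD, n = 9) in UCMS animals, a difference of -0.44 (SE 0.167, limma unadjusted p = 0.0149, Benjamini-Hochberg adjusted p = 0.442). On the linear scale that is a change of -26.5%, with a 95% confidence interval from -42.2% to -6.42%. UCMS replicate 7 was lowest, at 6.98 with the next library at 7.74, and without it the difference was -0.32. That library also had the lowest level of the platelet genes Pf4, at 7.84 with the next at 8.93, and Ppbp, at 7.06 with the next at 8.12. Over the groups Pf4 was at 9.63 ± 0.256 (SD, n = 7) in control and 9.13 ± 0.515 (SD, n = 9) in UCMS animals, a difference of -0.51 (SE 0.188, limma adjusted p = 0.430). Ppbp was at 8.85 ± 0.247 in control and 8.42 ± 0.576 in UCMS animals. Both genes had lower UCMS means, as B2m did. They varied with B2m over the 16 blood libraries (r = 0.86 for Pf4 and 0.90 for Ppbp), and Ppbp was looked up as 1 of the genes most like B2m. Their differences are thus not separate observations, and the part of platelets in the B2m difference was not tested.

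The class I heavy chain genes differed by -0.20 for H2-K1 (95% confidence interval -0.47 to 0.07) and -0.23 for H2-D1 (-0.51 to 0.05). H2-K1 had 2 of 9 UCMS libraries above the control median, and so did H2-D1. Among class II genes the differences were -0.29 for H2-Aa (-0.82 to 0.24), -0.20 for H2-Ab1 (-0.70 to 0.30), -0.20 for H2-Eb1 (-0.71 to 0.31) and -0.28 for Cd74 (-0.81 to 0.25). Cd74 ran from 5.38 over a median of 6.20 to 6.79 in control and from 5.04 over 5.75 to 6.93 in UCMS animals, and the highest blood library of all for Cd74 was UCMS replicate 1. Without control replicate 3 the class II differences were -0.15 for H2-Aa, -0.0729 for H2-Ab1, -0.0428 for H2-Eb1 and -0.16 for Cd74. The adjusted p of the 7 members with all libraries lay between 0.442 and 0.762. Limma called 0 of 7947 genes at an adjusted p of 0.05 (0%) and 859 (10.8%) at an unadjusted p under 0.05, with B2m as 1 of 7 members among them. Of all genes 51.5% were lower in UCMS animals. The 7 differences are not separate observations, since the class II genes varied together between animals, as given below. The summed level of the 10 B cell genes was 6.59 to 7.89 in control and 6.27 to 7.96 in UCMS animals. A B cell score was also taken, as the mean over these genes of levels centred and scaled by the SD of each gene. With this score as a covariate the Cd74 difference was -0.16 and that of B2m was -0.46, with limma adjusted p of 0.572 and 0.377.

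**Figure D3:**
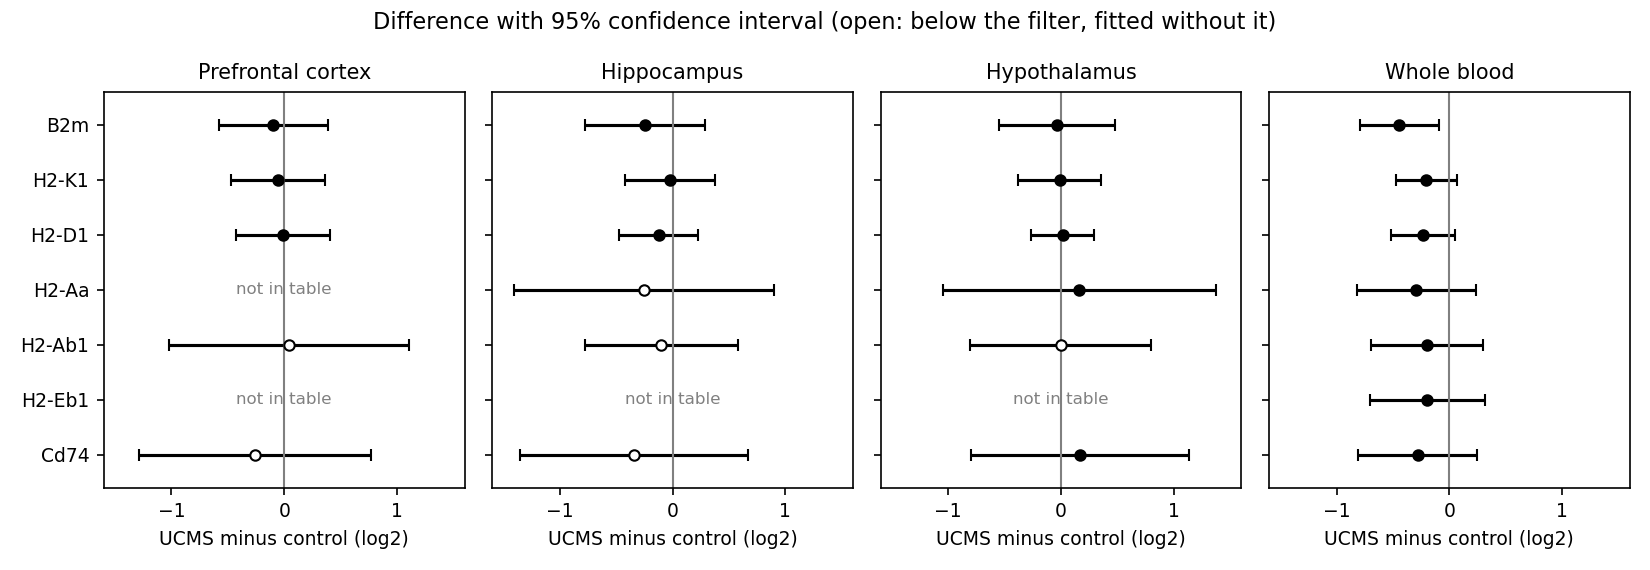
UCMS minus control difference of each member (log2, x axis) in the 4 tissues, with its 95% confidence interval; open points are members below the filter on low values, fitted without it. In brain the intervals of all members hold 0, and in blood all points lie left of 0, B2m at -0.44 being the member whose interval does not reach it.

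The other genes of the pathway were compared in the same fits. Of 49 genes in the lists for the class I side, the class II side and interferon gamma signalling, 38 were tested in blood, 32 in hypothalamus and 26 each in hippocampus and prefrontal cortex. By limma with adjustment over all genes 0 passed in each tissue. At an unadjusted threshold of 0.05 limma called 1 of them, the immunoproteasome subunit gene Psmb10 in hypothalamus, with a difference of -0.15 (SE 0.0661, limma adjusted p = 0.999988). Of all genes tested, 10.8% were called at that threshold in blood, 2.12% in hypothalamus, 2.95% in hippocampus and 2.18% in prefrontal cortex. In prefrontal cortex the smallest p belonged to Irf1, an interferon-induced transcription factor, with a difference of -0.26 (SE 0.166, limma adjusted p = 0.987). In hippocampus it belonged to Ifngr1, a chain of the interferon gamma receptor, with -0.18 (SE 0.0888, limma adjusted p = 0.990). In blood the smallest p belonged to H2-K2, a class I gene next to H2-K1, with -0.31 (SE 0.174, limma adjusted p = 0.504). H2-DMb2, a chain of the H2-DM molecule that exchanges peptides on class II, followed with -0.42 (SE 0.264, limma adjusted p = 0.542). On the class II side in blood 8 of 9 tested genes had lower means in UCMS animals, with a median difference of -0.16. On the class I side 13 of 21 did, with a median of -0.05. Over all genes tested in blood 51.5% were lower, with a median of -0.01. Genes of a list can vary together between animals, as Ciita did with Cd74 in blood (r = 0.86), so these counts are not of separate observations. On the class II side in brain the count with lower means was 4 of 6 in prefrontal cortex, 1 of 6 in hippocampus and 4 of 6 in hypothalamus. The share over all genes was 48%, 49.9% and 49.5% in that order.

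The light and heavy chains, and the invariant chain and class II chains, were then compared across animals. This was done over 16 pairs of members within a tissue, by two-sided permutation tests with 100000 resamples and Benjamini-Hochberg adjustment over the 16. In brain the hemoglobin-rich libraries form a separate cluster, so r is given for the others. In blood the class II genes moved together: Cd74 with H2-Aa gave r = 0.97 (rho = 0.96), with H2-Ab1 r = 0.95 (rho = 0.93) and with H2-Eb1 r = 0.94 (rho = 0.94), n = 16 each. For each the permutation p was 1e-05 for r and for rho, the smallest that 100000 resamples can give, and the adjusted p was 5.33e-05. Without control replicate 3 and UCMS replicate 1, the libraries farthest from the median, r was 0.95, 0.91 and 0.89. Within the 7 control animals r was 0.97, 0.92 and 0.93, and within the 9 UCMS animals 0.96, 0.96 and 0.94.

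In hypothalamus Cd74 with H2-Aa gave r = 0.94 (n = 12, permutation p = 4e-05, adjusted 0.00016) and rho = 0.81 (permutation p = 0.00236, adjusted 0.00755). It gave r = 0.71 without control replicate 6 and UCMS replicate 2. Cd74 with H2-Ab1 gave r = 0.90 (adjusted permutation p = 0.00163) and rho = 0.72 (adjusted permutation p = 0.0206) there, and r = 0.52 (permutation p = 0.122) without these libraries, so that relation rests on them. In hippocampus r was 0.68 for H2-Aa and 0.69 for H2-Ab1 (n = 13, adjusted permutation p = 0.0169 each), with rho of 0.68 and 0.69 (adjusted permutation p = 0.0206 each). Without UCMS replicates 1 and 7 (n = 11) r was 0.59 (permutation p = 0.0578) and 0.51 (permutation p = 0.105), and rho was 0.67 and 0.60. Within the 6 control animals r was 0.48 for H2-Aa and 0.02 for H2-Ab1 (permutation p = 0.312 and 0.974). Within the 7 UCMS animals it was 0.79 and 0.93 (permutation p = 0.0343 and 0.00159). With H2-Ab1 no relation was thus seen within the hippocampus controls. In prefrontal cortex Cd74 with H2-Ab1 gave r = 0.66 and rho = 0.67 (n = 14, adjusted permutation p = 0.0169 and 0.0206), and r = 0.72 without control replicate 3 and UCMS replicate 7. Within control and UCMS animals r there was 0.62 and 0.77 (n = 7 each). In hypothalamus the within-group r was 0.99 and 0.91 for H2-Aa and 0.96 and 0.88 for H2-Ab1 (n = 6 each).

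For class I, B2m with H2-D1 in prefrontal cortex gave r = 0.75 (n = 14, adjusted permutation p = 0.00427) and rho = 0.81 (adjusted permutation p = 0.00348), and r = 0.80 without control replicates 3 and 4. With H2-K1 there, r was 0.49 (adjusted permutation p = 0.0996) and rho was 0.65 (adjusted permutation p = 0.0206). In hippocampus B2m gave r = 0.03 with H2-K1 and r = 0.33 with H2-D1 (adjusted permutation p = 0.926 and 0.307), with rho of 0.18 and 0.48. In hypothalamus r was 0.75 with H2-K1 (adjusted permutation p = 0.0165, rho = 0.56) and 0.46 with H2-D1 (adjusted permutation p = 0.144, rho = 0.27). The first rests on control replicate 6 and UCMS replicate 2, without which r was 0.17. In blood B2m gave r = 0.54 with H2-K1 and 0.58 with H2-D1 (adjusted permutation p = 0.0492 and 0.0215), with rho of 0.56 and 0.61. Without UCMS replicates 7 and 8 r was 0.37 and 0.39 (permutation p = 0.185 and 0.165), and rho was 0.43 and 0.49. Within the 7 control animals r was -0.11 and 0.11, and within the 9 UCMS animals it was 0.59 and 0.60.

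Cd74 and B2m were also compared with the summed level of cell type marker lists, 28 relations chosen after the data were seen. In blood Cd74 varied with the 10 B cell genes, r = 0.96 and rho = 0.97 (n = 16, permutation p = 1e-05 for each, adjusted over 28 relations 0.00028), with r = 0.94 without UCMS replicates 1 and 5. Within control animals r was 0.98, and within UCMS animals it was 0.95. With the 7 T cell genes r was 0.71 and rho 0.71 (adjusted permutation p = 0.016 and 0.0304), and r was 0.67 without control replicates 2 and 6. With neutrophil, monocyte and dendritic cell genes r was -0.07, 0.16 and -0.18 (adjusted permutation p = 0.887, 0.755 and 0.754). B2m in blood had r = -0.06 with the B cell genes, 0.53 with neutrophil genes and 0.56 with the 2 dendritic cell genes (adjusted permutation p = 0.887, 0.124 and 0.117). In hypothalamus B2m had r = 0.72 with the meningeal and fibroblast genes (adjusted permutation p = 0.0581), and -0.01 without control replicate 6 and UCMS replicate 2. In hypothalamus Cd74 varied with the 6 meningeal and fibroblast genes, r = 0.91 and rho = 0.78 (n = 12, adjusted permutation p = 0.00121 and 0.0304), and r = 0.74 without UCMS replicate 2 and control replicate 6. In prefrontal cortex it did so with the 5 such genes in the table, r = 0.86 and rho = 0.74 (n = 14, adjusted permutation p = 0.00098 and 0.0304), and r = 0.72 without UCMS replicates 5 and 7. In hippocampus that r was 0.69 (n = 13, adjusted permutation p = 0.0564), and 0.18 without UCMS replicates 1 and 7. With the microglia genes Cd74 gave r of -0.05 in hypothalamus, 0.23 in hippocampus and 0.46 in prefrontal cortex (adjusted permutation p = 0.900, 0.737 and 0.238). Libraries of a table share their normalization and the dissection of a region, and what sets these relations was not tested.

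**Figure D4:**
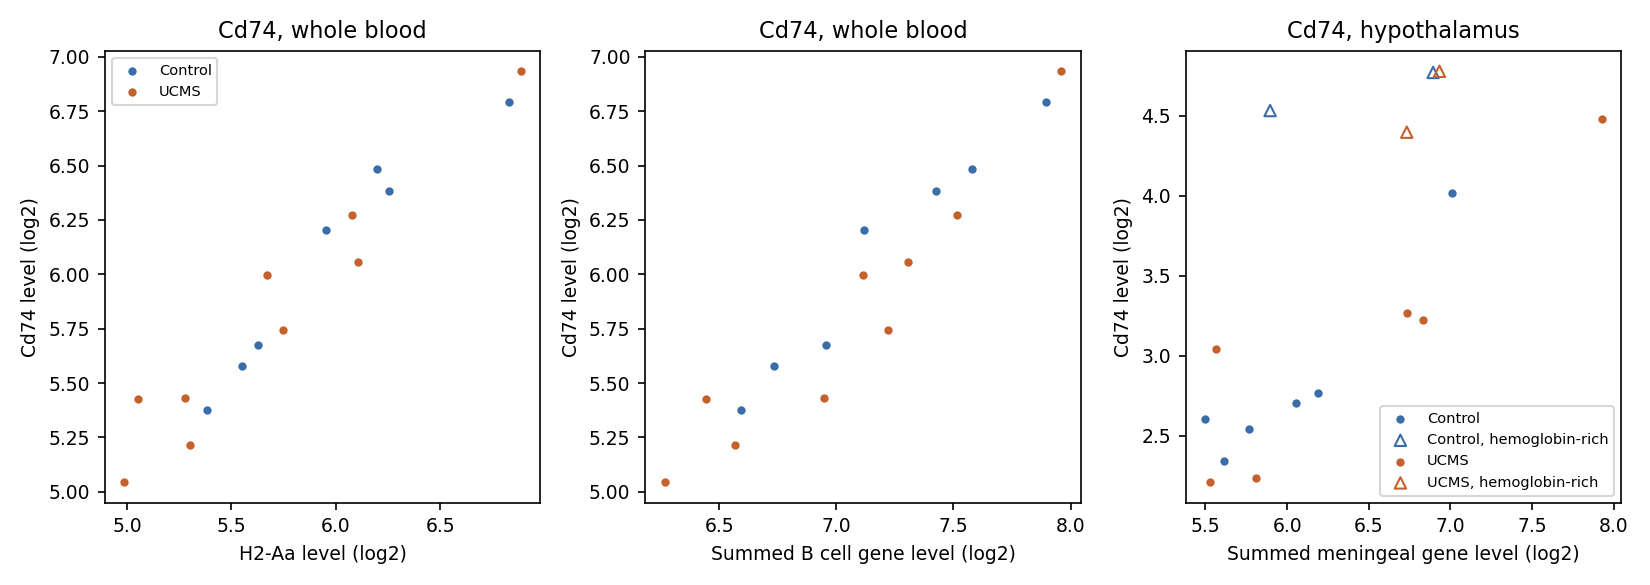
Cd74 level (log2, y axis) against the H2-Aa level and the summed level of 10 B cell genes in blood, and against the summed level of 6 meningeal and fibroblast genes in hypothalamus, 1 point per library. The blood points lie along a line in both panels (r = 0.97 and 0.96), and in hypothalamus the hemoglobin-rich libraries, shown as triangles, lie above the others at a given meningeal level.

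The named genes whose levels were most like those of Cd74 and B2m over the libraries of a table are given as a description, by Pearson's r and without a test. In blood the closest to Cd74 were Ighg2b (r = 0.98, n = 16) and Ighm (0.96), immunoglobulin heavy chain genes, Cxcr5 (0.94), the receptor that guides B cells into follicles, Sbk1 (0.93) and Cd79b (0.92), a subunit of the B cell receptor complex. The closest to B2m in blood were Hmga2-ps1 (0.93), Ywhah (0.92), Inafm2 (0.90), Ppbp (0.90), a chemokine stored in platelets, and Tpm4 (0.90). These sets did not share a gene. Over all 16 libraries H2-Ea-ps was closest to Cd74 in hypothalamus (r = 0.99) and hippocampus (r = 0.96). Without the hemoglobin-rich libraries it was closest in hypothalamus (r = 0.98, n = 12) and in hippocampus came after Aebp1, Sphk1 and Aim1 (r = 0.89, n = 13).

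H2-Ea-ps is the name in the reference strain, where the gene of the I-E alpha chain is disrupted, while BALB/c mice are known to make I-E. Its values thus belong beside H2-Eb1, the I-E beta chain, and its levels were looked up after these values were seen. It was at 3.61 to 3.97 in the 3 hemoglobin-rich hippocampus libraries and at 1.11 to 2.93 in the other 13. In hypothalamus it was at 4.09 to 4.42 in the 4 hemoglobin-rich libraries and at 1.43 to 4.08 in the other 12. In blood it was at 4.77 ± 0.506 (SD, n = 7) in control and 4.63 ± 0.511 (SD, n = 9) in UCMS animals, with the highest level, 5.79, in control replicate 3.

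In brain the lists of closest genes differed without the hemoglobin-rich libraries, apart from single genes such as H2-Ea-ps, Dcn and Cd24a. Over all 16 hypothalamus libraries the closest to Cd74 after H2-Ea-ps were H2-Q1 (r = 0.96), a nonclassical class I gene, Fxyd5 (0.95), Myl9 (0.95) and Samd9l (0.94). Over the other 12 they were Col1a2 (0.96), Ptrf (0.96), Nbl1 (0.96) and Col1a1 (0.95), of which Col1a1 and Col1a2 encode the chains of type I collagen. In prefrontal cortex the first over all libraries were Alox5ap (0.92) and Stom (0.92), and over the other 14 Fam160a1 (0.89) and Dcn (0.88), which encodes decorin, a proteoglycan of connective tissue. For B2m in hippocampus r reached 0.99 over all libraries, with Cd24a, a surface protein of blood precursor cells among others, and 0.88, with Ginm1, over the other 13. In hypothalamus the closest to B2m were F13a1 (0.98), coagulation factor XIII of platelets and macrophages, over all libraries and Itgb1 (0.92), Ifitm3 (0.88), an interferon-induced membrane protein, and Fcgrt (0.87) over the other 12. Fcgrt encodes the neonatal Fc receptor, whose light chain is beta-2-microglobulin.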

How the data were processed

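Total RNA of 64 libraries was depleted of ribosomal RNA and made into directional libraries from 100 ng, per the labels' protocols. Per the submitters' processing notes, reads were placed on GRCm38.p4. Which aligner and counting tool were used, and whether counting used strand, is not given in the sources used here. Values, deposited in 1 table per tissue by the authors, were read as log2 levels quantile normalized between libraries. Both were inferred from the values: at 72.4% to 89.4% of ranks all libraries were equal within 0.002. Depth is therefore unknown, and no libraries were identical. The number of columns without a sample was 0.

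UCMS and control libraries were compared per tissue with limma 3.58.1 in R 4.3.3, two-sided, on the genes above the lowest 10% by mean level. The prior variance followed a trend with level, and p-values had Benjamini-Hochberg adjustment with a threshold of 0.05. Members below that filter were taken from a fit without it. The fit was tested on simulated data. Relations used permutation tests (Python 3.11.15, scipy 1.17.1, numpy 2.4.6). They were planned over all libraries, but because the hemoglobin-rich brain libraries form a cluster they are given without these, with the pooled value as the alternative. Summed levels of marker lists are the log2 of the sum of linear values. Marker scores used as covariates are instead the mean over genes of log2 levels centred and scaled by the SD of each gene. Named genes were all members, in each tissue the 4 pathway genes with the smallest p, and the 5 named genes most like Cd74 and B2m, of which the text gives a selection. The members, gene lists, tests and motifs were chosen with earlier results of these data known. Alternatives were no filter, a 25% filter, no trend, array weights, a marker score as covariate, the replicate number as a block, and leaving out each library, the hemoglobin-rich libraries or the animals whose code starts with BS. Promoter sequences are from RefSeq and matched 5 of 7 members.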

Additional observations from a re-analysis of the deposited data

Results flagged for a closer look

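The distance of the highest and the lowest library from the next one was examined in 48 sets of libraries of 1 member, tissue and treatment. In 6 of them it was large for the range of the set, by a criterion that chance meets in about 1 set in 20. In prefrontal cortex these were B2m in control replicate 1, at 6.50 with the next at 5.55, and in UCMS replicate 6, at 6.32 with the next at 5.30. Control replicate 1 was also far above the other prefrontal cortex controls for H2-K1, at 4.26 with the next at 3.60, and for H2-D1, at 5.72 with the next at 4.73. In hippocampus UCMS replicate 6 had B2m at 6.61 with the next at 5.27. These 5 are hemoglobin-rich libraries. The sixth was UCMS replicate 7 in whole blood, with B2m at 6.98 and the next at 7.74.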

How the results depend on the processing

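The count of genes past the threshold stayed at 0 in every tissue and alternative except 1: without UCMS replicate 2, 1 gene passed in whole blood (0 to 1 over the libraries left out), and it was no member. At an unadjusted p the counts ran from 242 to 462 in prefrontal cortex, 336 to 927 in hippocampus, 257 to 389 in hypothalamus and 600 to 1057 in blood. No member passed under any alternative (smallest adjusted p 0.314). The 7 blood differences kept their sign throughout, B2m between -0.50 and -0.32 with 1 library left out. The class II differences in blood moved by over 1.5 times: Cd74 -0.42 to -0.16, H2-Aa -0.44 to -0.15, H2-Ab1 -0.34 to -0.0729 and H2-Eb1 -0.34 to -0.0428, nearest 0 without control replicate 3 and farthest without UCMS replicate 1.

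Of 24 member differences 14 changed sign somewhere, all in brain and all with intervals that hold 0. Without the hemoglobin-rich libraries these were H2-D1 in prefrontal cortex (0.044), H2-Aa (0.055), H2-Ab1 (0.0155) and H2-K1 (0.036) in hippocampus and H2-Ab1 in hypothalamus (0.10). With array weights they were H2-Ab1 in prefrontal cortex (-0.12) and B2m in hypothalamus (0.026), and with the microglia covariate H2-Ab1 in prefrontal cortex (-0.011). Without animals coded BS they were H2-D1 in prefrontal cortex (0.044) and hypothalamus (-0.0166) and H2-K1 in hippocampus (0.00636). With 1 library left out, the ranges in prefrontal cortex were -0.25 to 0.0742 for B2m, -0.25 to 0.28 for H2-Ab1, -0.11 to 0.14 for H2-D1, -0.17 to 0.0569 for H2-K1 and -0.54 to 0.0463 for Cd74. In hippocampus they were -0.57 to 0.0307 for H2-Aa, -0.28 to 0.0301 for H2-Ab1 and -0.15 to 0.0572 for H2-K1. In hypothalamus they were -0.16 to 0.10 for B2m, -0.0611 to 0.44 for H2-Aa, -0.15 to 0.17 for H2-Ab1, -0.0621 to 0.0747 for H2-D1, -0.12 to 0.0634 for H2-K1 and -0.0205 to 0.38 for Cd74. The cause was not tested.

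Of 281 alternative values of the 16 relations 7 changed sign. B2m with H2-K1 in hippocampus was -0.54 without the 2 farthest libraries, -0.30 in controls and -0.35 to 0.56 with 1 library left out. B2m with H2-D1 was -0.27 in hippocampus and -0.12 in hypothalamus without the 2 farthest libraries, and B2m with H2-K1 in blood was -0.11 in controls. With the hemoglobin-rich libraries B2m gave r of 0.84 with H2-K1 and 0.92 with H2-D1 in hippocampus.

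Replicate numbers name different animals in the 2 groups and were not taken as pairs, since not every same-numbered pair of libraries correlated above 0.1: this held in 6 of 8, 3 of 8, 3 of 8 and 2 of 7 pairs in prefrontal cortex, hippocampus, hypothalamus and blood. With the replicate block, which in blood leaves out UCMS replicates 8 and 9, 0 genes passed in each tissue, the count at an unadjusted p in prefrontal cortex went from 308 to 459, and the B2m difference in blood was -0.41. Depth is unknown, so no counting error can be given.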
